A study of Mus musculus with 2 samples.

Results

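The nuclei described here, called Chat/Ghrh nuclei, form a small group of neurons of the arcuate nucleus (ARC) that were chosen by RNA of 8 genes, among them Chat and Ghrh. They numbered 163 of the 4395 nuclei assigned to the ARC side (3.71%, exact binomial 95% interval 3.17 to 4.31), out of 10170 nuclei that passed the filters and 11409 barcodes in the deposited matrix. A nucleus was taken when it held a unique molecular identifier (UMI, a tag that stands for 1 captured RNA molecule) of at least 4 of Chat, Colec12, Mbnl3, Gm49267, Fbxl7, C79798, Ghrh and Foxp2. The 4232 remaining ARC-side nuclei served as the comparison, called the other ARC nuclei below. Because the same counts chose the nuclei and were then described, the levels of the 8 genes are given as a description of the choice and not as a finding.

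The material was micro-dissected hypothalamus from wild type C57BL/6J mice, all male and 10 to 12 weeks of age, with no treatment named. The sort kept nuclei stained for NeuN, which marks neurons, and RNA and hashtags of the pooled nuclei were read as 2 libraries of 1 capture on the 10x Genomics platform. Hashtags are antibodies with a DNA barcode, added so that preparations can be told apart after pooling. The 2 hashtags are named ARC and PVH in the files and do not tell mice apart, so the nuclei form 1 sample without replicates, and no test across nuclei was made. Intervals given here are exact, at the 95% level, and cover counting error only, and they say nothing of the spread between mice. Those of levels and ratios take each UMI as independent, also where several lie in 1 nucleus.

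Acetylcholine is made from choline and acetyl-CoA by choline acetyltransferase, the product of Chat, and is then loaded into vesicles by the transporter encoded by Slc18a3. Growth hormone-releasing hormone, the product of Ghrh, is made by neurons of the arcuate nucleus, is released at the median eminence and stimulates the secretion of growth hormone from the pituitary. Its neurons are known to make other messengers as well, among them the neuropeptide galanin (Gal) and, in some of them, tyrosine hydroxylase (Th), the enzyme of the first step of dopamine synthesis. Growth hormone, insulin-like growth factor 1 and somatostatin act back on this system.

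The region just before the start of each of the 2 name-giving genes is shown here, since both genes helped to choose the nuclei and homeodomain factors are among the genes described below. Ghrh (ENSMUSG00000027643) lies on chromosome 2 from 157329497 to 157347506 on the minus strand of GRCm38, and Chat (ENSMUSG00000021919) on chromosome 14 from 32408203 to 32465989, also on the minus strand. RefSeq lists 2 starts of Ghrh. The 250 bases before the downstream start (chr2:157337427-157337676, GRCm38.p6, minus strand), which lie inside the annotated span of the gene, held 2 copies of TAATTA, a core letter string of homeodomain sites that reads the same on both strands, and these are in capitals.
Ghrh: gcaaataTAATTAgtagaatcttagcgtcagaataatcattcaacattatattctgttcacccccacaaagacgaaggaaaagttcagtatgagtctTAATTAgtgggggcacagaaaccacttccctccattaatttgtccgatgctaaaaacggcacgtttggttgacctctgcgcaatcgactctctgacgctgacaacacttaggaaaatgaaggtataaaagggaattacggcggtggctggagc
The 250 bases before the RefSeq start of Chat (chr14:32465910-32466159, GRCm38.p6, minus strand) held none. That start lies inside the span of Chat given above, so the window partly overlaps the annotated gene.
Chat: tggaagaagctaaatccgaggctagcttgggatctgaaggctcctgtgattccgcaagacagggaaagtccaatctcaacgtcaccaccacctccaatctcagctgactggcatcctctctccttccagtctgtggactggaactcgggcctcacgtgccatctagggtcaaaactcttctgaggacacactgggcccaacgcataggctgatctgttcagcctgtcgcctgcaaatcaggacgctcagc
The 2 copies began 243 and 153 bases before the start of Ghrh. Of 32851 promoter windows in the RefSeq table, searched over the 250 bases before the start, 4.84% held at least 1 TAATTA. The window before the upstream start of Ghrh (chr2:157346656-157346905) also lies inside the annotated span and held none. A forkhead string (TGTTTAC) and a nuclear receptor half-site (AGGTCA), each read on either strand, were searched as well. The forkhead string, held by 3.17% of promoter windows, was in none of the windows of Ghrh and Chat. The half-site, held by 14% of promoter windows, was found 1 time in each Ghrh window, not marked above, and not before Chat. A match is a description of the letters and not of a bound site.

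The choice separated a thin tail of nuclei. Of the ARC-side nuclei, 2430 held no UMI of the 8 genes, 1293 held 1 of them, 386 held 2 and 123 held 3. The Chat/Ghrh nuclei were made up of 78 nuclei with 4 of the genes, 50 with 5, 24 with 6, 9 with 7 and 2 with all 8. Among the 5775 nuclei of the PVH side 27 passed the same gene rule (0.468%, 0.308 to 0.680), so that the share was larger on the ARC side. Just outside the threshold, the 123 nuclei with 3 genes had Chat at 38.4 and Ghrh at 42.6 UMIs per 1000000 summed UMIs (CPM), and just inside it, the 78 nuclei with 4 had Chat at 81.1 and Ghrh at 62.5 CPM.

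**Figure D1:**
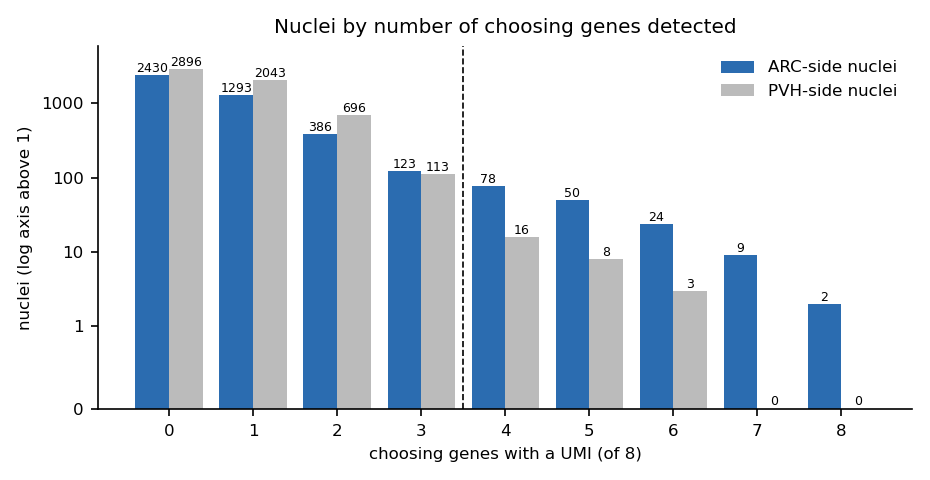
Number of nuclei (y axis, logarithmic above 1) by how many of the 8 choosing genes had a UMI (x axis), for ARC-side and PVH-side nuclei. To the right of the dashed line lie the 163 Chat/Ghrh nuclei, against 27 PVH-side nuclei that pass the same gene rule.

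The depth of the Chat/Ghrh nuclei was close to that of the comparison. They held 935005 UMIs in all, with a median of 5178 per nucleus (1234 to 11932), while the other ARC nuclei held 21450902 with a median of 4758.5. The hashtag counts were mixed in both groups. The median was 100 UMIs of the ARC hashtag and 76 of the PVH hashtag in the Chat/Ghrh nuclei, against 93 and 76 in the other ARC nuclei. Only 23 of the Chat/Ghrh nuclei (14.1%) carried at least 2 times as many ARC as PVH hashtag UMIs, against 12.2% of the other ARC nuclei.

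Chat was the choosing gene with the sharpest difference. The Chat/Ghrh nuclei held 105 Chat UMIs, or 112 CPM (91.8 to 136), against 2.47 CPM in the other ARC nuclei (1.85 to 3.23), a ratio of 45.5. Chat was seen in 69 of the 163 nuclei (42.3%) with at most 4 UMIs per nucleus, and in 0.874% of the other ARC nuclei. The 163 nuclei carried 66.5% of all Chat UMIs of the ARC side. When a nucleus was instead chosen by at least 4 of the other 7 genes, so that Chat itself had no part, Chat was found in 45 of 139 nuclei (32.4%, 24.7 to 40.8) against 1.43% of the remainder, a ratio of levels of 21.6 (15.6 to 30).

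Ghrh was less concentrated in these nuclei than Chat. The Chat/Ghrh nuclei held 86 Ghrh UMIs, or 92.0 CPM (73.6 to 114), against 12.7 CPM in the other ARC nuclei (11.2 to 14.3), a ratio of 7.25. A Ghrh UMI was seen in 60 of the 163 nuclei (36.8%, 29.4 to 44.7) and in 5.98% of the other ARC nuclei. Nuclei with several Ghrh UMIs were rare everywhere, with 4 Chat/Ghrh nuclei at 3 or more and a highest value of 8, against 1 of the 4232 other ARC nuclei at 3 and none above it. The Chat/Ghrh nuclei carried 24.0% of the Ghrh UMIs of the ARC side. The remaining UMIs lay mostly 1 to a nucleus over many kinds of neuron. In nuclei chosen by markers of AGRP neurons, which are not known to make this hormone, 2.31% had a Ghrh UMI (0.633 to 5.81) at a median depth of 5601 UMIs. In POMC-marker nuclei the share was 6.54% (3.18 to 11.7) and in PVH-side nuclei 6.77%. In nuclei chosen by dopaminergic markers it was 13.9% (6.87 to 24.1). How much of the 5.98% in the other ARC nuclei is background was not tested. The 36.8% of the Chat/Ghrh nuclei is a value that the choice used. Chosen by at least 4 of the other 7 genes, 36 of 139 nuclei (25.9%, 18.8 to 34.0) had a Ghrh UMI against 6.51% of the remainder. As for Chat, this share is no independent support.

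The other choosing genes were Colec12, which encodes a scavenger receptor of the collectin family, Mbnl3, an RNA-binding regulator of splicing, Fbxl7, an F-box protein of ubiquitin ligases, Foxp2, a forkhead transcription factor, and the antisense genes Gm49267 and C79798. Colec12 stood at 179 CPM against 6.48 in the other ARC nuclei (ratio 27.6) and was seen in 52.8% of the Chat/Ghrh nuclei against 2.15%. Mbnl3 was at 160 CPM with a ratio of 20.1 and Gm49267 at 174 CPM with a ratio of 17.6. Fbxl7 and Foxp2 were found in most of the nuclei, 87.7% and 89.0%, against 18.0% and 16.8% of the other ARC nuclei. Foxp2 was also seen in 26.8% of the PVH-side nuclei. The ratios of levels of Fbxl7 and Foxp2 were 11.5 and 9.07, and that of C79798 was 10.9. Since Gm49267 lies antisense within Fbxl7, the 2 genes are not independent criteria where counting cannot separate the strands.

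Detection of Chat, Ghrh, Gal and Th was followed over the number of the 6 remaining choosing genes in a nucleus, a count in which Chat and Ghrh take no part. Chat, Ghrh and the 6 genes all serve to choose the same group, which was set with earlier results of these data known. A rise of Chat and Ghrh over this count thus describes the choice and is no independent support. Chat was found in 0.232% of the 2582 nuclei with none of the 6 genes, in 20% of the 120 nuclei with 3 and in 55.6% of the 9 nuclei with all 6 (21.2 to 86.3). Ghrh went from 5.69% to 20% and 33.3% over the same steps. Gal and Th were not among the choosing genes, but they were named as markers of the group with earlier results of these data known. Both were also more often seen in the nuclei with more of the 6 genes, which is no independent support. Gal was found in 23.2% of the nuclei with none, 40.8% with 3 and 55.6% with all 6, and Th in 3.29%, 10.0% and 66.7%. The median depth of these classes lay between 4654.5 and 5807 UMIs, highest in the class with all 6 genes.

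**Figure D2:**
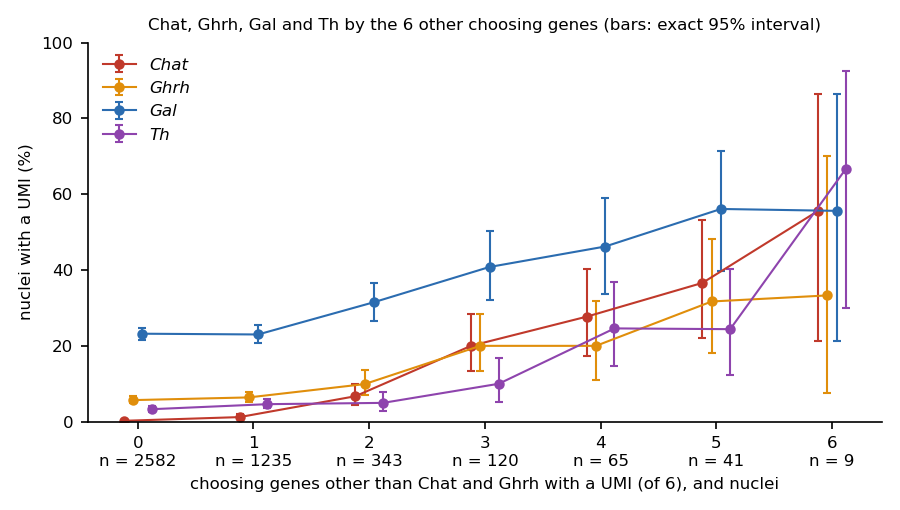
Percent of ARC-side nuclei with a UMI of Chat, Ghrh, Gal or Th (y axis) by how many of the 6 choosing genes other than Chat and Ghrh were detected (x axis, with the number of nuclei), with exact 95% binomial intervals. Chat goes from 0.232% to 55.6% and Gal from 23.2% to 55.6%, and the intervals at 6 genes are wide because 9 nuclei stand there. The group and its markers were chosen with earlier results of these data known, so these rises are no independent support.

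Of the 5 genes that name or mark the group, Gal and Th took no part in the choice, and both were higher in the Chat/Ghrh nuclei. The 5 genes were named with earlier results of these data known. The higher levels of Gal and Th thus describe the group and are no independent support. Gal (ENSMUSG00000024907, chromosome 19 from 3409915 to 3414544) had 135 UMIs in the Chat/Ghrh nuclei, or 144 CPM (121 to 171), against 57.3 CPM in the other ARC nuclei, a ratio of 2.52 (2.09 to 3.01). It was seen in 85 of 163 nuclei (52.1%) with up to 7 UMIs per nucleus, and in 23.9% of the other ARC nuclei. Gal was at 37.0 CPM in AGRP-marker nuclei, 55.1 in POMC-marker nuclei and 44.4 in nuclei chosen by dopaminergic markers, so that the level in the Chat/Ghrh nuclei stood above each of these with no overlap of intervals.

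Th (ENSMUSG00000000214, chromosome 7 from 142892752 to 142931128) had 46 UMIs in the Chat/Ghrh nuclei, or 49.2 CPM (36.0 to 65.6), against 9.60 CPM in the other ARC nuclei, a ratio of 5.12 (3.64 to 7.08). It was seen in 41 nuclei (25.2%), at 1 or 2 UMIs in each, against 3.83% of the other ARC nuclei. The level was lower than the 121 CPM (90.7 to 159) of the 72 dopaminergic-marker nuclei, for which Th was itself among the choosing genes. Chat had 0 UMIs in the dopaminergic-marker nuclei, with an upper limit of 8.61 CPM, and 0 in the POMC-marker nuclei, with an upper limit of 4.06 CPM. Ghrh was at 28.0 CPM (14.5 to 48.9) in the dopaminergic-marker nuclei, above its 12.7 CPM in the other ARC nuclei and below its level in the Chat/Ghrh nuclei.

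**Figure D3:**
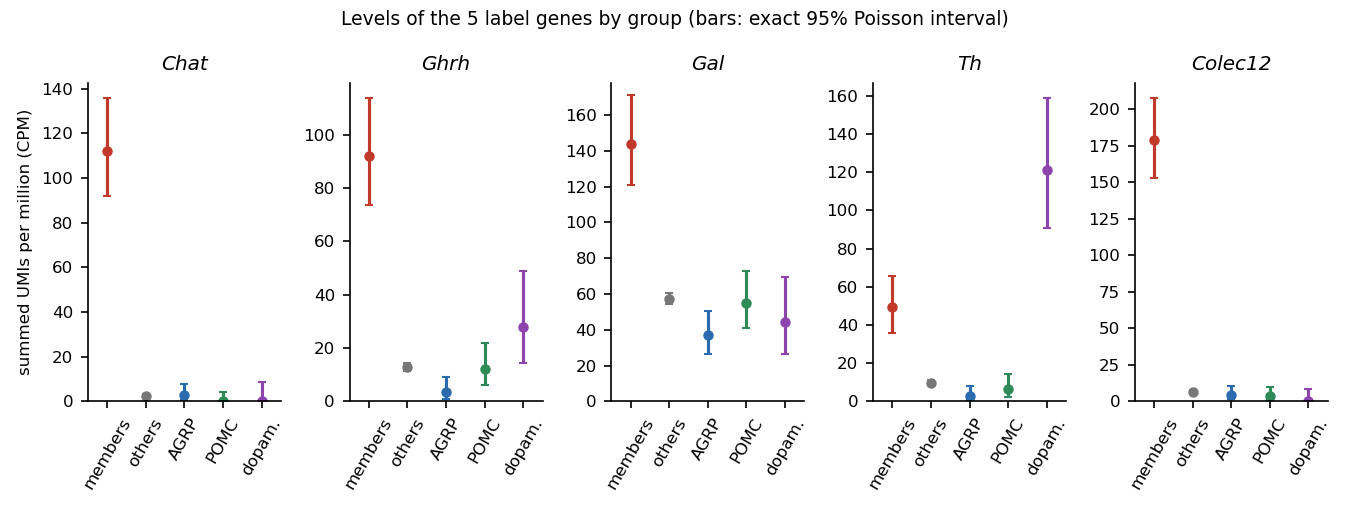
Levels of Chat, Ghrh, Gal, Th and Colec12 as CPM (y axes, each starting at 0 with a scale of its own) in the Chat/Ghrh nuclei (members), the other ARC nuclei and nuclei chosen by AGRP, POMC or dopaminergic markers, with exact 95% Poisson intervals. Of the 5 genes, Th is the one with its highest level in another group, the dopaminergic-marker nuclei at 121 CPM.

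To set depth aside, each nucleus was thinned to 1000 UMIs, which left out no ARC-side nucleus. Chat was then detected in 7.98% of the Chat/Ghrh nuclei against 0.165% of the other ARC nuclei, and Ghrh in 6.13% against 1.25%. Gal was detected in 16.6% against 5.62% and Th in 3.07% against 0.898%. The order of the groups was the same at both depths. Shares moved with depth, so a nucleus without a UMI of a gene is not shown to lack its RNA.

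The messenger genes were mixed within the group. A UMI of both Chat and Ghrh was seen in 24 of the 163 nuclei, of Chat without Ghrh in 45, of Ghrh without Chat in 36 and of neither in 58, so that the name of the group does not describe each nucleus. Ghrh was detected in 34.8% of the nuclei with a Chat UMI (23.7 to 47.2) and in 38.3% of those without (28.5 to 48.9), 2 shares whose intervals overlap widely. Because Chat and Ghrh both counted toward the choice, these shares are shaped by it. Gal was seen in 63.8% of the nuclei with Chat (51.3 to 75.0) and 43.6% of those without (33.4 to 54.2), and in 60% of the nuclei with Ghrh against 47.6% of those without, where the intervals overlap. Th was seen in 24.6% of the nuclei with Chat and 25.5% of those without. Counting Chat, Ghrh, Gal and Th together, 26 nuclei had none of the 4, 55 had 1, 51 had 2, 26 had 3 and 5 had all 4, whereas 68.8% of the other ARC nuclei had none and 0.142% had 3.

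The nuclei also lay close together when the 8 genes were left out of the clustering. Genes that overlap them on the other strand, such as Pbx3 for C79798, were not left out. Since the group was chosen with earlier results of these data known, this closeness describes the group and is no independent support. Leiden clustering of the ARC-side nuclei on the other genes gave 17 clusters, and 146 of the 163 Chat/Ghrh nuclei (89.6%) fell into 1 cluster of 245 nuclei, called the leading cluster below. The same 245 nuclei came back at a resolution of 1 with 21 clusters, and with 1 nucleus more at a resolution of 2 with 27 clusters. On average 58.3% of the 20 nearest neighbours of a Chat/Ghrh nucleus were Chat/Ghrh nuclei as well, against 1.67% for the other ARC nuclei. The cluster held 98.0% of the nuclei with 5 of the choosing genes, 80.8% of those with 4, 42.3% of those with 3, 9.33% of those with 2 and 0.0823% of those with none.

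In that cluster Chat stood at 107 CPM, while the 16 other clusters lay between 0 and 2.85, and it held 88 of the 106 ARC-side nuclei with a Chat UMI. Gal stood at 161 CPM against 44.2 to 74.3 in the other clusters. Ghrh was at 72.3 CPM (58.2 to 88.6) in the cluster, and the next highest of the other clusters was at 25.6 CPM (13.2 to 44.7). The cluster held 92 of the 358 Ghrh UMIs, so most Ghrh UMIs of the ARC side lay elsewhere and at low levels. Th was at 44.0 CPM in it and at 135 CPM in another cluster of 107 nuclei with no Chat/Ghrh nucleus. Foxp2 was at 536 CPM in the leading cluster and at 601 CPM in a cluster of 44 nuclei, also with no Chat/Ghrh nucleus. The 17 Chat/Ghrh nuclei outside the leading cluster were deeper, with a median of 6613 UMIs, and had Chat at 23.7 CPM, Gal at 39.5 and Th at 7.89. No caller of doublets was run, and the part of doublets in these 17 nuclei was not tested.

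Beyond the 8 genes, 9696 genes had at least 300 UMIs over the ARC-side nuclei, and 152 of them (1.57%) stood at least 2-fold higher in the Chat/Ghrh nuclei while 382 (3.94%) stood at or below 0.5-fold. The median ratio over all 9696 genes was 0.976, and 45.4% of them were above 1. The group is small, and a gene at the minimum of UMIs can pass either limit by counting error, so the genes named next are those whose intervals lay farthest from 1. The 25 genes with the highest lower bounds had ratios from 3.62 to 8.60.

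The highest lower bound was that of Pbx3 (ENSMUSG00000038718), a homeodomain transcription factor of the TALE class. The choosing gene C79798 lies within Pbx3 on the opposite strand. The level of Pbx3 is thus not independent of the choice where counting cannot separate the strands. Pbx3 stood at 775 CPM (720 to 834) against 90.2 in the other ARC nuclei, a ratio of 8.60 (7.89 to 9.37), and was seen in 88.3% of the Chat/Ghrh nuclei with a median of 4 UMIs per nucleus and a highest value of 13. Ikzf2, which encodes the zinc finger factor Helios, had a ratio of 4.76 (4.08 to 5.53), Foxo1, a forkhead factor that insulin signalling keeps out of the nucleus, 3.93 (3.13 to 4.89), and Zfp385b, a zinc finger gene, 3.77 (3.38 to 4.18).

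Fstl5, which encodes a secreted follistatin-like protein, stood at 1210 CPM against 178 (ratio 6.79, 6.35 to 7.26) and was seen in 92.6% of the nuclei with a median of 6 UMIs. Dcc, the netrin receptor of axon guidance, was at 2250 CPM against 595 (ratio 3.79, 3.62 to 3.97), with a median of 11 UMIs, and only 2 of the 163 nuclei had none. Reln, the secreted protein reelin, had a ratio of 6.07 but was seen in only 44.2% of the nuclei. Also among the 25 were Mdga1, a membrane-anchored regulator of neuroligins (6.13), Thsd7a, a thrombospondin-domain protein (5.24), Igsf21, an immunoglobulin-domain protein of synapses (4.28), and Col8a1, a collagen chain (4.33). Reln, with 2.64, and Mdga1, with 3.83, had lower ratios when no hashtag rule was applied, and so did Nos1 with 2.81 and Gm13944 with 3.28.

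Among the others of the 25, Grik1, a subunit of kainate-type glutamate receptors, was at 1060 CPM against 285 (ratio 3.70, 3.46 to 3.96). Cadps2, which helps to prime dense-core vesicles for release, was at 786 CPM against 217 (3.62, 3.35 to 3.92), whereas its relative Cadps was at 575 against 631 (0.911). Nos1, the neuronal nitric oxide synthase, stood at 77.0 CPM against 18.1 (4.26, 3.26 to 5.49) and was seen in 51 nuclei. Esr1, the estrogen receptor alpha, was at 381 CPM against 105 (3.63, 3.24 to 4.06) and was seen in 77.3% of the nuclei against 29.2% of the other ARC nuclei. The list was completed by Chn2 (7.07) and Arhgap10 (4.37), which encode activators of GTP hydrolysis by small GTPases, Pld5 (4.86), of the phospholipase D family, St3gal1 (4.85), a sialyltransferase, Pcsk6 (4.05), a proprotein convertase, and 5 antisense genes.

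These antisense genes stood beside their partners on the opposite strand. Gm29114 (5.67) overlaps Ikzf2 (4.76), Gm13944 (5.24) overlaps Zfp385b (3.77), Sox5os2 (5.07) and Sox5os4 (4.63) overlap Sox5 (2.96), and Dlx6os1 (3.79) overlaps Dlx6 (3.47). The antisense gene C79798 (10.9), used in the choice, lies within Pbx3. In each of these pairs both genes were higher in the Chat/Ghrh nuclei. Whether the counting used strand was not stated in the sources at hand, and if strand was not used the reads of the 2 genes of a pair cannot be told apart.

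**Figure D4:**
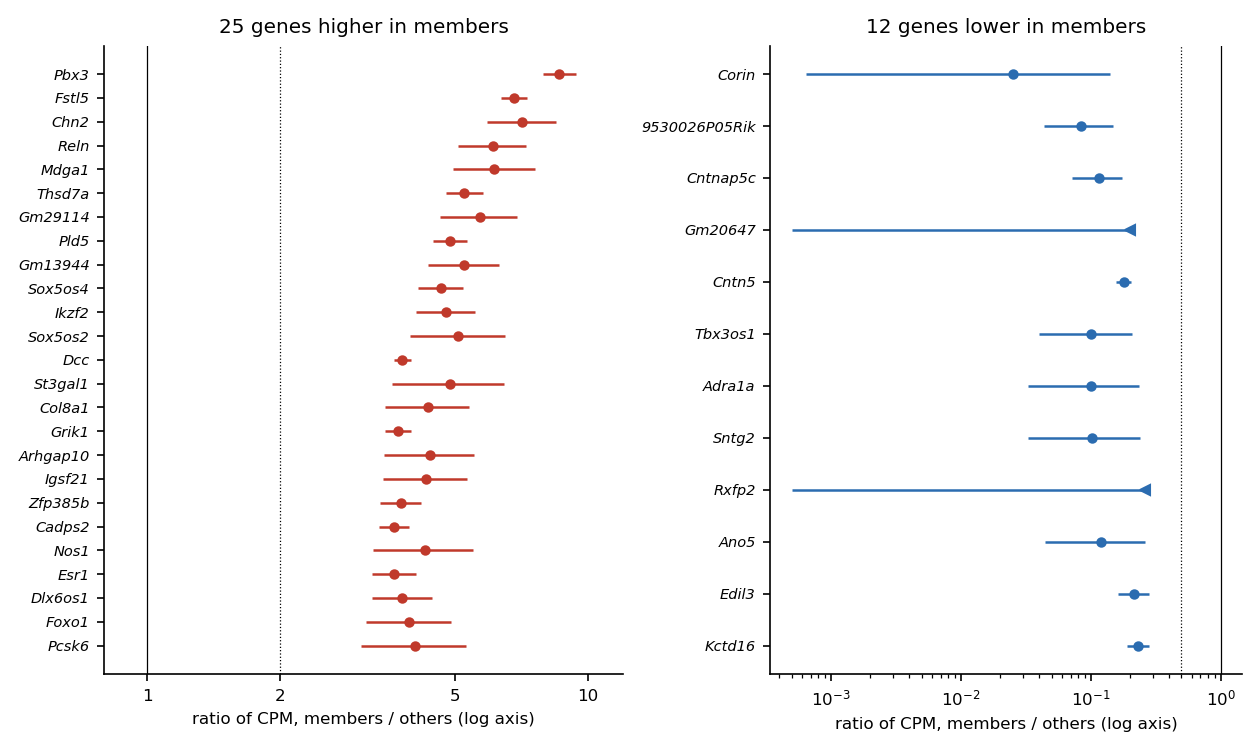
Ratio of CPM in the Chat/Ghrh nuclei (members) over the other ARC nuclei (x axes, logarithmic) for the 25 genes with the highest lower bounds and the 12 with the lowest upper bounds, with exact 95% intervals. The solid line marks 1 and the dotted lines 2 and 0.5. A triangle marks the upper bound of a gene with 0 UMIs in the Chat/Ghrh nuclei, and the line to its left goes on to 0.

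The 12 genes with the lowest upper bounds were led by a marker of another kind of ARC neuron. Corin, which encodes a membrane protease and is known as a marker of AGRP neurons, had 1 UMI in the Chat/Ghrh nuclei against 902 in the other ARC nuclei, a ratio of 0.0254 (0.000643 to 0.142), and Gm20647, antisense to it, had 0 UMIs, with an upper limit of the ratio of 0.201. Rxfp2, a receptor of the relaxin family, also had 0 UMIs, with an upper limit of 0.260. That limit takes each UMI as independent, while the 327 Rxfp2 UMIs of the other ARC nuclei lay in only 2.93% of them. As a share of nuclei, 0 of 163 allows up to 2.24%. Cntn5, a contactin of neuronal adhesion, was at 226 CPM against 1250 (0.180, 0.156 to 0.206) and was seen in 28.2% of the nuclei against 60.7%. Tbx3os1 was at 0.100 and its partner Tbx3, a T-box factor of arcuate neurons, at 0.253. The others were the antisense gene 9530026P05Rik (0.0849), Cntnap5c (0.116), of the contactin-associated family, Adra1a (0.101), the alpha-1A adrenergic receptor, Sntg2 (0.102), a syntrophin, Ano5 (0.121), Edil3 (0.215) and Kctd16 (0.233), an auxiliary subunit of GABA-B receptors. With at least 3 of the 8 genes as the rule Corin was at 0.142, 9530026P05Rik at 0.234, Sntg2 at 0.275, Adra1a at 0.284, Tbx3os1 at 0.299, Cntnap5c at 0.332, Kctd16 at 0.355, Cntn5 at 0.384, Edil3 at 0.426 and Ano5 at 0.507.

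**Figure D5:**
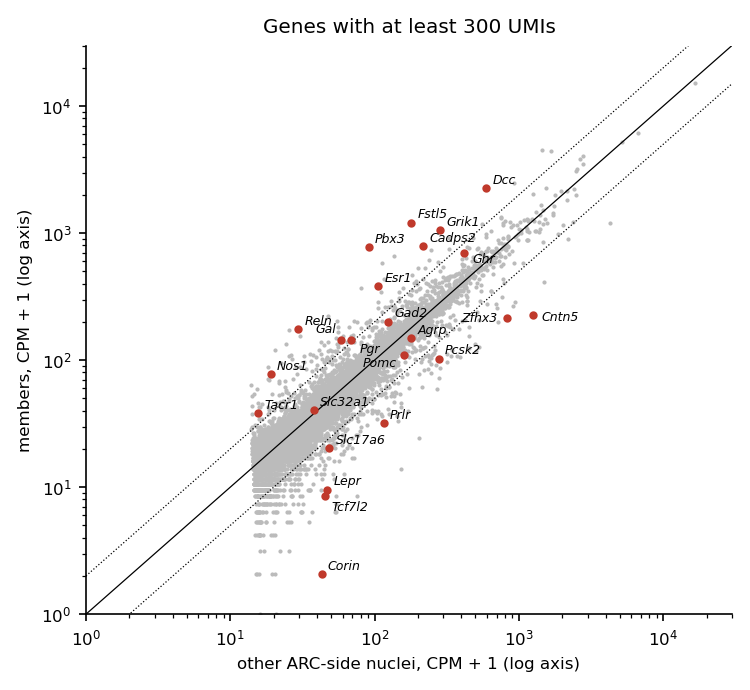
Level of each of the 9696 genes with at least 300 UMIs, as CPM + 1 in the other ARC nuclei (x axis) and in the Chat/Ghrh nuclei (y axis, both logarithmic). The solid line marks equal levels and the dotted lines 2-fold differences; named genes are in red, with Pbx3, Fstl5, Dcc, Grik1 and Esr1 above the lines, Corin, Cntn5, Lepr and Pcsk2 below them, and Gad2 and Slc32a1 between them.

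The Chat/Ghrh nuclei carried RNA of GABA synthesis and transport and less RNA of the glutamate transporter than the comparison. Gad2, an enzyme that makes GABA, was at 200 CPM against 123 (ratio 1.62, 1.39 to 1.88), Gad1, the other such enzyme, at 71.7 against 63.4 (1.13, 0.871 to 1.44) and Slc32a1, the vesicular transporter of GABA, at 39.6 against 37.0 (1.07, 0.748 to 1.49). Slc17a6, the vesicular glutamate transporter of the hypothalamus, was at 19.3 CPM against 47.6 (0.405, 0.239 to 0.643), and in the cluster of 245 nuclei at 12.6. It was at 0.508 of the comparison when at least 3 of the 8 genes were required. Of the 6 tested genes of the GABA list, none was at least 2-fold higher and 1 was at or below 0.5. The latter was the GABA uptake transporter gene Slc6a11 with a ratio of 0.324. Over all genes tested 1.57% and 3.94% passed these limits. The median ratio of the list was 1.1 beside the 0.976 of all genes. Of the 3 tested glutamate genes, Slc17a6 alone passed a limit, beside the same shares of all genes.

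The transporters of cholinergic neurons had few or no UMIs. Slc18a3, the vesicular acetylcholine transporter, which lies within Chat on the same strand, had 0 UMIs in all ARC-side nuclei and in all 5775 PVH-side nuclei. Whether the counting could tell its reads from those of Chat was not tested, so this 0 is not read as absence. Slc5a7, the high-affinity choline transporter, had 1 UMI in the Chat/Ghrh nuclei and 9 in the others, and Slc10a4, a vesicular protein of cholinergic and monoaminergic neurons, had 4 and 16 (ratio 5.74, 1.40 to 17.8). Of the 3 list genes with enough UMIs for a ratio, none passed a limit, beside 1.57% higher and 3.94% lower over all genes tested. Ache, which encodes acetylcholinesterase, was at 0.677 (0.436 to 1.01) and Isl1, a LIM homeodomain factor, at 1.41 (1.2 to 1.65). The presence or absence of Slc18a3 and Slc5a7 RNA in nuclei with Chat cannot be read from these counts. Among acetylcholine receptors 2 of 4 tested genes were at or below 0.5, beside 3.94% of all genes tested. They were Chrna7 at 0.280 and Chrm2 at 0.411. None was at least 2-fold higher, beside 1.57% of all genes, and the muscarinic receptor gene Chrm3 was at 1.63 (1.41 to 1.87).

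The genes of dopamine handling did not follow Th. Ddc, which turns L-DOPA into dopamine, was at 57.8 CPM against 44.7 (ratio 1.29, 0.964 to 1.70), and Slc18a2, the vesicular monoamine transporter, at 20.3 against 29.6 (0.685, 0.410 to 1.08). Slc6a3, the dopamine transporter, had 1 UMI in the Chat/Ghrh nuclei, and Gch1, which makes the cofactor of tyrosine hydroxylase, had 3 (0.305, 0.0623 to 0.901). None of the 4 tested genes passed a limit, beside 1.57% higher and 3.94% lower over all genes tested. Below the minimum for the count, the dopamine receptor gene Drd3 had 14 UMIs in the Chat/Ghrh nuclei and 26 in the others, 15.0 against 1.21 CPM (ratio 12.4, 5.96 to 24.5), while Drd2 had 4 UMIs and Drd1 had 2.

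Within the growth hormone axis, 11 list genes besides Ghrh had enough UMIs, of which 1, Gal, was at least 2-fold higher and 2 were at or below 0.5, beside 1.57% and 3.94% of all genes tested, with a median ratio of 0.8 beside 0.976. Ghr, the growth hormone receptor, stood at 701 CPM against 415 (ratio 1.69, 1.56 to 1.83), below the 1360 CPM of the AGRP-marker nuclei, and Igf1r, the receptor of insulin-like growth factor 1, at 132 against 88.2 (1.49, 1.23 to 1.79). Dlk1, an imprinted gene that encodes a protein of the Notch ligand family, was at 1.43 (1.23 to 1.64). Prlr, the prolactin receptor, was at 31.0 CPM against 115 (0.269, 0.180 to 0.387), and Pcsk2, a convertase that cleaves prohormones, at 102 against 278 (0.366, 0.295 to 0.448). Pcsk2 was at 0.635 with at least 3 of the 8 genes and at 0.598 with at least 3 of the 6. The factor gene Gsx1, which is required for Ghrh in development, had 1 UMI, Ghsr, the ghrelin receptor, had 2, and the somatostatin receptor genes Sstr1 and Sstr2 had 2 and 10, too few for a comparison.

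Of 11 tested neuropeptide genes, Gal was at least 2-fold higher and Tac2 (0.436) was at or below 0.5, with a median ratio of 0.834, beside the same shares and median of all genes. Cartpt was at 122 CPM against 95.5 (1.28, 1.05 to 1.54) and Sst at 64.2 against 93.2 (0.689, 0.523 to 0.890). Penk, with 23 UMIs in the Chat/Ghrh nuclei and under the minimum in all, was at 24.6 CPM against 12.3 (ratio 2.00, 1.25 to 3.06). Of the 13 secretory granule genes Cadps2 was the only one higher by 2-fold and Pcsk2 the only one at or below 0.5. Over all genes tested 1.57% and 3.94% passed these limits. The median ratio of the 13 genes was 0.936, beside 0.976 for all genes.

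In the list of hormone and peptide receptors 3 of 26 tested genes were at least 2-fold higher and 3, Lepr, Prlr and Thrb, were at or below 0.5, beside 1.57% and 3.94% of all genes tested, at a median ratio of 0.981 beside 0.976. The higher ones were Esr1 (3.63), Pgr and Tacr1. The progesterone receptor gene Pgr was at 143 CPM against 67.7 (2.12, 1.76 to 2.53), and at 1.80 with at least 3 of the 8 genes. Tacr1, the substance P receptor, was at 37.4 against 14.6 (2.57, 1.75 to 3.64), and at 1.83 with at least 3 of the 8 genes. Lepr, the leptin receptor, was at 8.56 CPM against 45.8 (0.187, 0.0804 to 0.369), and at 0.569 with no hashtag rule. In the 27 PVH-side nuclei that passed the gene rule Lepr went the other way. It was at 53.2 CPM there (24.3 to 101, 9 UMIs in 4 nuclei), against 13.0 in all PVH-side nuclei. Thrb, a thyroid hormone receptor, was at 77.0 against 202 (0.381, 0.297 to 0.481). Crhr2, a receptor of corticotropin-releasing hormone and urocortins that was under the minimum of UMIs, was at 29.9 against 6.34 (4.72, 3.03 to 7.13).

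Among 23 tested transcription factor genes 3 were at least 2-fold higher, namely Pbx3, Sox5 (2.96, 2.73 to 3.21) and Prox1 (2.74, 2.20 to 3.38), and 8 were at or below 0.5, beside 1.57% and 3.94% of all genes tested. Their median ratio was 0.751, beside 0.976 for all genes. Prox1 was at 1.98 when the ARC hashtag had to reach 2 times the PVH hashtag. The lower ones included Tcf7l2 (0.168), Nfib (0.234), Tbx3 (0.253), Nr5a2 (0.253), Zfhx3 (0.259), Nkx2-1 (0.293) and Otp (0.296). The Dlx genes, homeodomain factors of GABA neurons, were under the minimum of UMIs. Dlx1 was at 42.8 CPM against 10.5 (4.06, 2.83 to 5.70), Dlx2 at 12.8 against 5.31 (2.41, 1.21 to 4.38), Dlx6 at 13.9 against 4.01 (3.47, 1.77 to 6.25) and Dlx5 at 9.63 against 5.31 (1.81, 0.808 to 3.56). Onecut1 was at 3.44 (1.71 to 6.35) and Onecut2 at 2.87 (1.75 to 4.48).

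Markers of other cells were read in the same nuclei. The 5 general neuron markers summed to 2460 CPM in the Chat/Ghrh nuclei and 2240 in the others. The 5 AGRP markers summed to 250 against 412 CPM and the 4 POMC markers to 256 against 307. The KNDy list, for neurons with kisspeptin, neurokinin B and dynorphin, summed to 391 against 131 CPM, of which Esr1 alone gave 381, while Kiss1 had 0 UMIs, Tac2 had 8 and Pdyn 2. The list of the ventromedial hypothalamus summed to 16.0 against 30.1 CPM, with its defining Nr5a1 and Fezf1 at 0 UMIs.

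Glial and vascular markers were low in both groups. The astrocyte list summed to 29.9 against 35.2 CPM with Gfap at 0, tanycytes to 83.4 against 117 with Rax, Crym and Vim at 0, oligodendrocytes to 81.3 against 111, their precursors to 6.42 against 15.2 and microglia to 112 against 138. Endothelial genes summed to 12.8 against 8.48 CPM, mural genes to 0 against 1.26, ependymal genes to 2.14 against 2.47 and genes of the pars tuberalis to 21.4 against 9.46 on 20 UMIs. UMIs of Agrp and Pomc were found in 54.0% and 43.6% of the Chat/Ghrh nuclei and in 53.4% and 42.7% of the other ARC nuclei, about the same share in both. Oxt and Avp, peptide genes of other hypothalamic nuclei, were found in 93.9% and 79.8% against 90.3% and 74.7%. Free RNA in droplets gives a like share of nuclei with a UMI in every cell type, and its part in the other results was not tested.

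Within the group, the 60 nuclei with a Ghrh UMI were set beside the 103 without. The median depth was 5308.5 and 5088 UMIs. Of 2008 genes with at least 100 UMIs over the group, 2 (0.0996%) were at least 2-fold higher with Ghrh and 2 (0.0996%) were at or below 0.5. Lhfpl3 was at 266 CPM with Ghrh and 131 without (ratio 2.03, 1.48 to 2.78), and Cartpt, the peptide gene of POMC and other neurons, at 181 and 87.0 (2.07, 1.41 to 3.06). The lower ones were Zfhx3, a homeodomain factor, at 129 and 263 CPM (0.491, 0.344 to 0.688) and Jpx, a noncoding gene, at 65.9 and 138 (0.477, 0.286 to 0.766). Gal was at 195 and 114 CPM (1.70, 1.2 to 2.42). No spread between mice can be given for these ratios.

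The next genes by lower bound were Pik3r1 (1.79), Wsb1 (1.73), Ctdspl2 (1.71), Gmds (1.66), Map4 (1.64), Syn3 (1.61) and Hs2st1 (1.49), and by upper bound Sox5os4 (0.504), Mgat4c (0.524) and Il1rapl2 (0.571). Chat was at 94.6 and 123 CPM (0.770, 0.494 to 1.18), Th at 60.2 and 42.7 (1.41, 0.751 to 2.63) and Esr1 at 398 and 370 (1.08, 0.863 to 1.34). Nuclei without Ghrh had to hold 4 of the 7 other choosing genes to be taken, which lifts those genes on that side. With and without Ghrh, 55 of 60 and 91 of 103 nuclei lay in the leading cluster.

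A split of the Chat/Ghrh nuclei by a Chat UMI, looked at after the split by Ghrh, set 69 nuclei with Chat beside 94 without. Of these, 67 and 79 lay in the leading cluster, and the part of this difference in the ratios between them was not tested. Of 2008 genes, 0 (0%) were at least 2-fold higher with Chat and 6 (0.299%) were at or below 0.5. Among the latter, Htr2c, a serotonin receptor gene, was at 53.1 CPM with Chat and 156 without (ratio 0.341, 0.203 to 0.552), Cdh4, a cadherin, at 65.1 and 179 (0.365, 0.228 to 0.565), Dpp10, a partner of potassium channels, at 157 and 386 (0.406, 0.302 to 0.540) and Epha6, an ephrin receptor, at 72.4 and 156 (0.465, 0.295 to 0.715). Esr1 was at 442 and 332 CPM (1.33, 1.07 to 1.65) and Ghrh at 91.7 and 92.2 (0.994, 0.632 to 1.55). These genes were chosen after their values were seen.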

How the data were processed

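Single-nucleus RNA was measured in 1 pooled library with its hashtag library, given as 1 matrix in which both share every barcode. The authors deposited raw UMI counts for 32285 genes, made with Cell Ranger (5.0 per the labels, 4.0.0 in the matrix header) on mm10, and used Seurat 4 for later steps, which were not used here. Barcodes were kept above 800 and under 5000 genes, up to 12000 UMIs and up to 1% mitochondrial UMIs, and those with ARC hashtag UMIs of at least 0.8 times those of PVH were called ARC-side. No doublet caller was run.

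UMIs were summed per group and given as CPM with exact Poisson intervals. For shares the exact binomial interval was used, and for a ratio of CPM the interval of the count in 1 group given the count in both (Python 3.11.15, scipy 1.17.1). The ratio and its interval were tried on simulated counts in which each UMI was independent. That trial cannot show how the interval holds where several UMIs lie in 1 nucleus or where mice differ. A ratio of at least 2 or at most 0.5 was called over genes with at least 300 UMIs, without the 8 choosing genes. AGRP-marker nuclei held at least 4 of 5, POMC-marker nuclei 3 of 4 and dopaminergic-marker nuclei 3 of 5 markers, and 8 nuclei in 2 of these groups were left out. Clustering (leidenalg 0.10.2) used 2000 variable genes, 30 components and 20 neighbours at a resolution of 0.55 and was added after the data were seen. Gene positions were taken from GENCODE M21, which held 32235 of the identifiers, and promoters from RefSeq.

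The group, the gene lists, the marker lists and the limits were chosen with earlier results of these data known. Named genes were the 8 choosing genes, the 5 genes Chat, Ghrh, Gal, Th and Colec12, genes of the lists, the 25 with the highest lower and 12 with the lowest upper bound, and, for the split by Ghrh, 10 and 5 likewise. Alternatives changed the number of choosing genes, the filters, the hashtag rule, the comparison nuclei, the weighting and the minimum of UMIs. Values of some list genes are not reported here.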

Additional observations from a re-analysis of the deposited data

Results flagged for a closer look

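On the PVH side, which the comparisons above did not use, 27 of 5775 nuclei passed the 8-gene rule, and this signal in nuclei outside the main comparison is what drew attention. Against the other PVH-side nuclei they had Chat at a ratio of 80.0 (37.9 to 161, 13 UMIs) and Ghrh at 7.80 (4.65 to 12.3, 19 UMIs), both of which served in the choice. Of genes that did not, Gal was at 2.61 (1.75 to 3.77) and Th at 7 (2.98 to 14.1, 8 UMIs). Of the 25 genes named as higher on the ARC side, 25 were above 1 and 17 at least 2-fold higher in these 27 nuclei, where 4.20% of 10466 genes reached 2-fold. Their median ratio here was 2.63, while on the ARC side their ratios ran from 3.62 to 8.60. Of the 12 named as lower, 11 were below 1 and 8 at or below 0.5, where 12.4% of all genes were. The same 8 genes chose these 27 nuclei and the ARC-side nuclei from which the 25 and 12 genes were named. The likeness of the 2 sides, also for Gal and Th, thus describes the rule and is no independent support. Lepr, which was lower in the Chat/Ghrh nuclei of the ARC side, was higher in these 27 nuclei, at 53.2 CPM against 13.0 in all PVH-side nuclei. The hashtag medians of the 27 nuclei were 56 UMIs of ARC and 105 of PVH. Whether these nuclei came from the ARC preparation was not tested.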

How the results depend on the processing

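The number of Chat/Ghrh nuclei was 163 and moved to 286 with at least 3 of the 8 genes, to 85 with at least 5 and to 23 where the ARC hashtag had to reach 2 times the PVH hashtag. The genes at least 2-fold higher, 152 of 9696, moved to 409 under that hashtag rule, where the group held 23 nuclei, and to 241, 80 and 1591 with a minimum of 100 UMIs, of 1000 UMIs and of 1 UMI in each group, over 12812, 5009 and 17066 genes. The genes at or below 0.5, 382, moved to 143 and 636 with at least 3 and at least 5 of the 8 genes, to 1350 under the stricter hashtag rule, to 199 with at least 3 of the 6 genes other than Chat and Ghrh, and to 917, 153 and 1312 under the 3 minimums. Under the other alternatives these counts stayed within 1.5 times. The medians of the 10 lists stayed within their own intervals under all alternatives run. For the lists with 3, 4 or 6 tested genes that interval is the whole range of the list, so this says little about them.

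Over 52 named genes with UMIs in the group and 12 alternatives, 622 ratios were computed, of which 475 lay within the counting interval of the reported ratio and 147 outside it, and none of the called ones crossed 1. Chat moved from 45.5 to 16.5 under the stricter hashtag rule, to 26.0 with at least 3 of the 6 genes, to 349 against nuclei with at most 1 choosing gene and to 103 with the leading cluster as the group, and Ghrh from 7.25 to 15.1 and 4.37 under the first and second of these. Colec12 moved from 27.6 to 63.4 under the stricter hashtag rule and to 51.2 against nuclei with at most 1 choosing gene. Leaving out the Chat/Ghrh nuclei outside the leading cluster, chosen after seeing the data, kept 151 of the 152 higher and 368 of the 382 lower genes and gave 177 and 514. With 935005 UMIs in the group, a gene with 0 UMIs could be at up to 3.95 CPM.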

Other observations

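Among genes with at least 100 and fewer than 300 UMIs over the ARC-side nuclei, also chosen after their values were seen, 6030498E09Rik had a ratio of 8.45 (6.23 to 11.3), Dusp10, a phosphatase of MAP kinases, 8.23 (5.77 to 11.6) and was seen in 23.9% of the Chat/Ghrh nuclei, Gm14565 8.30 (5.57 to 12.1), Best3 6.31 (3.75 to 10.2) and Col12a1, a collagen chain, 4.94 (3.16 to 7.48). Gm44129, which lies antisense to Thsd7a, had 5.80 (4.09 to 8.08).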
